A study of Mus musculus with 8 samples.

Results

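The genes described here are 10 members of the MHC class I antigen presentation pathway, of 33027 genes counted in lung cells of mice exposed to cigarette smoke (CS) or kept in room air (RA). They were chosen by the level of B2m in alveolar type 2 (AT2) cells, which was higher in smoke-exposed mice, so their values in AT2 cells are given as a description, and tests of members were kept to the other cell types. The same 8 mice gave every cell type. Single-cell RNA sequencing (10x Genomics 3′ chemistry) had been run on 4 CS and 4 RA mice. All 8 were Sftpc-CreERT2-mTmG mice on a C57BL/6 background, in which the Sftpc promoter drives a tamoxifen-inducible Cre in AT2 cells, and all received tamoxifen for 4 days at 8 to 10 weeks of age. Exposure began 2 weeks later, in a chamber for CS mice (3R4F cigarettes, 6 h per day, 5 days per week) or in room air, and lasted 10 months. Right lungs were taken 1 day after the last exposure, and sorted cells were recombined as 10% CD45+ and 90% CD45- cells, so the share of leukocytes is set by the sort.

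Class I molecules show peptides from inside the cell to CD8+ T cells and to NK cells. A polymorphic heavy chain (H2-K1 and H2-D1 in the mouse, with H2-T23 as a non-classical chain) pairs with beta-2 microglobulin, the product of B2m. Peptides are cut by the immunoproteasome, whose inducible subunits include Psmb8 and Psmb9, carried into the endoplasmic reticulum by the Tap1 and Tap2 transporter, and loaded with the help of tapasin (Tapbp), calreticulin (Calr) and Pdia3. Nlrc5 is the transactivator of class I genes, and interferons induce most of the pathway.

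The members lie at 3 places in the genome (GRCm38, GENCODE annotation, all protein coding, counted over spliced and unspliced transcripts). B2m lies at chr2:122147686-122153083 on the plus strand and Nlrc5 at chr8:94434356-94527272 on the plus strand. The other members lie within the MHC on chromosome 17: Tapbp at chr17:33915899-33929292, H2-K1 at chr17:33996017-34000347, Psmb9 at chr17:34181987-34187764, Tap1 at chr17:34187553-34197225, Psmb8 at chr17:34197721-34201454, Tap2 at chr17:34203527-34216321, H2-D1 at chr17:35262730-35267499 and H2-T23 at chr17:36029773-36032855. H2-K1, Psmb9 and H2-T23 are on the minus strand and the other 5 on the plus strand. Psmb9 and Tap1 overlap at their starts, on opposite strands, and the H2 genes belong to a family of similar sequence, so their separate counts are uncertain where reads could be shared, which was not measured here.

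Promoter sequences were read from RefSeq (GRCm38.p6) as the 250 bases up to the RefSeq transcript start, and 8 of the 10 members had an entry. Those starts can differ from the gene spans given above. The windows of H2-D1, Tapbp, Psmb8 and Psmb9 lie inside those spans, and that of H2-T23 partly so. The sequences are shown because the members are known to share regulatory elements. The B2m promoter (chr2:122147437-122147686, plus strand) is printed 5′ to 3′ with capitals for matches, on either strand, to the letters of an interferon-stimulated response element (ISRE: TTTC, any 2 bases, TTTC), a kappaB element (GGG, any 5 bases, CC), a CCAAT box (CCAAT) or a CRE core (TGACG). The ISRE match of B2m and its nearer kappaB match lie 139 to 117 bases before the start (chr2:122147548-122147570). The heavy chain genes carry a pair of kappaB matches, at chr17:34000448-34000474 for H2-K1 (minus strand) and chr17:35262907-35262933 for H2-D1 (plus strand).
B2m: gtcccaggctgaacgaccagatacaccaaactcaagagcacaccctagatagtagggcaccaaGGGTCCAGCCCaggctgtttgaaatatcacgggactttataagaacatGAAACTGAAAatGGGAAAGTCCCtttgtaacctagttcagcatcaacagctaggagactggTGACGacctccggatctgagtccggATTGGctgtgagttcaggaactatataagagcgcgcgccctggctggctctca
H2-K1: GGGGAAGCCCagggctGGGGATTCCCC
H2-D1: GGGGAAGCCCagggctGGGGATTCCCC

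The 27 bases were the same in both heavy chain genes, and 166 of 190 aligned promoter bases (87.4%) were the same. A CCAAT match was in 7 of 8 member promoters, against 33.8% of 32851 promoter windows of the same length. TGACG was in 5 of 8 (17.8% of all windows), the kappaB letters in 5 of 8 (45.8%), and the ISRE letters in 2 of 8 (2.98%), namely B2m and H2-T23. The Psmb9 and Tap1 windows (chr17:34187331-34187580 and chr17:34187306-34187555) share most of their bases on opposite strands, so matches there were counted for both genes. With the likeness of H2-K1 and H2-D1, the 8 promoters are not independent, and the counts were not tested. A match is a run of letters and not a measured binding site. The lack of a match to these exact letters does not show that an element is absent.

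After multiplets and a cycling cluster were left out, 40074 cells of 32 labelled types remained, 20330 from CS and 19744 from RA mice. Corrected transcript totals, taken over all cells before any were left out, were 34417120 to 50439134 per CS mouse and 31882952 to 55485617 per RA mouse. The unit throughout is the mean number of transcripts per 10,000 over a mouse's cells of a type. The AT2 and AT1 labels matched their markers: the surfactant gene Sftpc averaged 1180 per 10,000 in AT2 cells and 6.16 in the next type, club cells, and Ager averaged 165 in AT1 cells and 8.24 in the next type, AT2 cells. No marker of their own was checked for some labels, among them ciliated, club and goblet cells, monocytes, granulocytes, NK cells and Mast, and the top gene of the cells labelled Mast was the chemokine gene Ccl4. In the CS libraries the sex-linked transcripts went against the labelled sex, and no comparison used sex. The 4 sequencing lanes held 1 CS and 1 RA mouse each, and 394 cells had a barcode that also occurred in another library. For the members CS mouse 3 and RA mouse 1 stood apart. CS 3 was the highest CS mouse for B2m in 16 of the 21 cell types other than AT2, and RA 1 was the lowest RA mouse for B2m in 10 of 18. In turn CS 1 was the lowest CS mouse for B2m in 15 of 19 types, and RA 3 the highest RA mouse in 13 of 21. Only CS 3 and RA 1 were left out together, so a smaller B2m difference without them follows in part from that choice. No pair from the other ends was left out together. Counts of members over types are given with and without CS 3 and RA 1 where those counts moved most.

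In AT2 cells (705 CS and 1176 RA cells) all 10 members had a higher mean in CS mice, as did 52.7% of the genes tested there. B2m, which chose the genes, had the largest log2 difference of the 10. That order depends on the pseudocount of 1, which understates changes of low genes. B2m averaged 10.4, 9.86, 11.6 and 8.76 transcripts per 10,000 in CS mice 1 to 4, and 6.44, 5.89, 6.53 and 7.57 in RA mice 1 to 4. The groups did not overlap, and the means were 10.1 ± 1.17 and 6.61 ± 0.703 (SD, n = 4 each), a log2 difference of 0.55. Within lanes CS was higher by 0.19 to 0.87 on the log2 scale. That it was higher in 4 of 4 lanes follows from the lack of overlap and adds nothing to it.

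The heavy chains followed B2m to different extents in AT2 cells. H2-K1 stood at 20.4, 19.4, 23.1 and 19.2 in CS mice and at 16.6, 15.4, 15.7 and 17.7 in RA mice, with no overlap and a log2 difference of 0.31. H2-D1 stood at 11.9, 10.8, 13.5 and 11 in CS mice and at 11.8, 10.2, 9.64 and 11.3 in RA mice, which overlapped, with a log2 difference of 0.13. The non-classical chain H2-T23 averaged 1.0 ± 0.135 in CS and 0.668 ± 0.110 in RA mice, also without overlap.

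Tapbp, the chaperone that holds an empty class I molecule next to the transporter, stood at 1.38, 1.32, 1.46 and 1.39 in CS mice and at 0.997, 1.15, 0.966 and 0.948 in RA mice of AT2 cells, with no overlap. Tap1 averaged 0.25 in CS and 0.194 in RA mice and Tap2 0.323 and 0.292, and both overlapped. Psmb8 averaged 1.06 and 0.769, Psmb9 0.568 and 0.416, and Nlrc5 0.167 and 0.140, also with overlap. So 4 of the 10 members, B2m, H2-K1, H2-T23 and Tapbp, had all CS mice above all RA mice, against 2.47% of the 9032 genes tested in AT2 cells. Nothing is read from that count, since B2m in these cells chose the genes. The summed leukocyte markers were 0.164 to 0.579 in CS and 0.463 to 0.680 in RA mice of AT2 cells, the summed endothelial markers 2.53 to 5.92 and 1.95 to 7.56, and no gene of either list was at 0 in all mice. With cells rich in those markers left out, the B2m difference was 0.53.

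**Figure D1:**
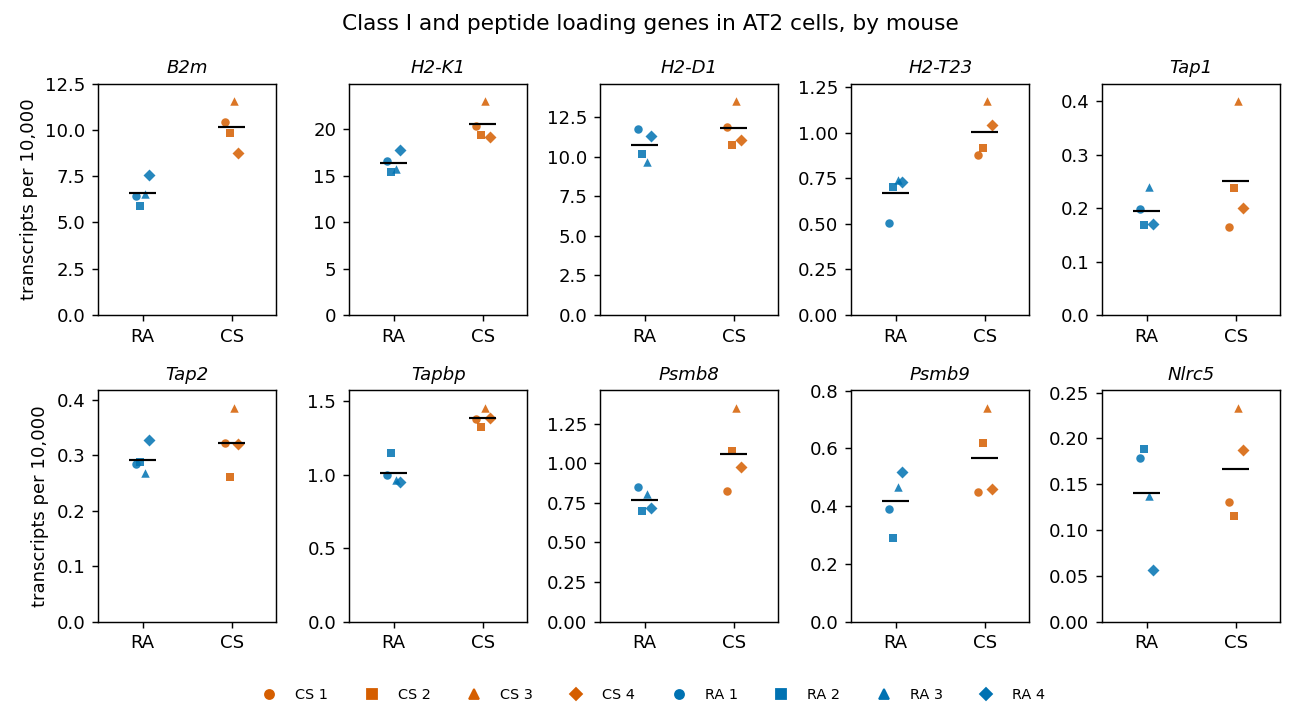
Mean transcripts per 10,000 (y axis) of the 10 members in AT2 cells of each RA (blue) and CS (orange) mouse, with 1 point per mouse, a symbol for each mouse number and a black line for the group mean. B2m, H2-K1, H2-T23 and Tapbp have all 4 CS points above all 4 RA points, while H2-D1 and the other 5 genes overlap.

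Across the lung, B2m ran from 0.964 ± 0.569 (SD, n = 8) in club cells to 31.1 ± 1.51 (n = 7) in non-classical monocytes. Alveolar macrophages (20.6), aerocytes (17.6), classical monocytes (17.0), mesothelial cells (16.4), NK and cytotoxic T cells (16.2), general capillary (gCap) cells (16) and T cells (15.7) followed. Venous (14.0) and lymphatic (12.1) endothelial cells, adventitial fibroblasts (11.6), arterial endothelial cells (10.6), granulocytes (10.3) and B cells (9.78) held the middle. AT1 cells (9.17), AT2 cells (8.38), cells labelled Mast (6.61), alveolar (5.85) and peribronchial (4.96) fibroblasts came next, and goblet cells (2.7), ciliated cells (1.48) and club cells were lowest. CS 3 lay far above the other CS mice in goblet and ciliated cells, which raises the means there. With AT2 cells left out of the order, no neighbours passed an exact paired sign-flip permutation test over mice after adjustment over the 20 pairs (smallest adjusted p = 0.156, with 4 pairs at an unadjusted p under 0.05). The smallest p that 8 mice allow in this permutation test is 0.0078, so a lone pair could not pass after adjustment. Neighbours that did not pass are therefore not shown to be alike.

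Class means of B2m differed, again with AT2 cells left out of the tests. B2m was higher in endothelial than in the other epithelial types by 2.06 ± 0.39 on the log2 scale (SD, 8 of 8 mice, exact two-sided sign-flip permutation p = 0.0078, the smallest that 8 mice allow, adjusted p = 0.0100 over 18 pairs), and with AT2 cells the mean difference was 1.78. Epithelial types were also below mesenchymal types by a mean log2 difference of -1.41 and below immune types by -2.13, again in 8 of 8 mice (exact permutation adjusted p = 0.0100 for each). Endothelial and immune types differed by a mean of -0.07 ± 0.26 (exact permutation p = 0.586). For the heavy chains, endothelial types were above epithelial by 1.61 ± 0.44 for H2-K1 and 2.01 ± 0.30 for H2-D1 (8 of 8 mice each, exact permutation adjusted p = 0.0100).

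The other members peaked in different types. H2-T23 was highest in venous endothelial cells (4.36 transcripts per 10,000), Tap1, Tap2 and Psmb9 in gCap cells (0.849, 1.45 and 1.77), Psmb8 in classical monocytes (3.12) and Nlrc5 in T cells (1.80). None of these genes had neighbouring types that passed the adjusted test, in which a lone pair could not pass. Over the 22 types, the genes whose means were most like those of B2m, of 6847 compared, were H2-D1 (Pearson r = 0.858), Klf13 (0.851), Psmb8 (0.830), Rac1 (0.800) and Rhoa (0.799). These values describe types that share the same 8 libraries, and no test was made of them.

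**Figure D2:**
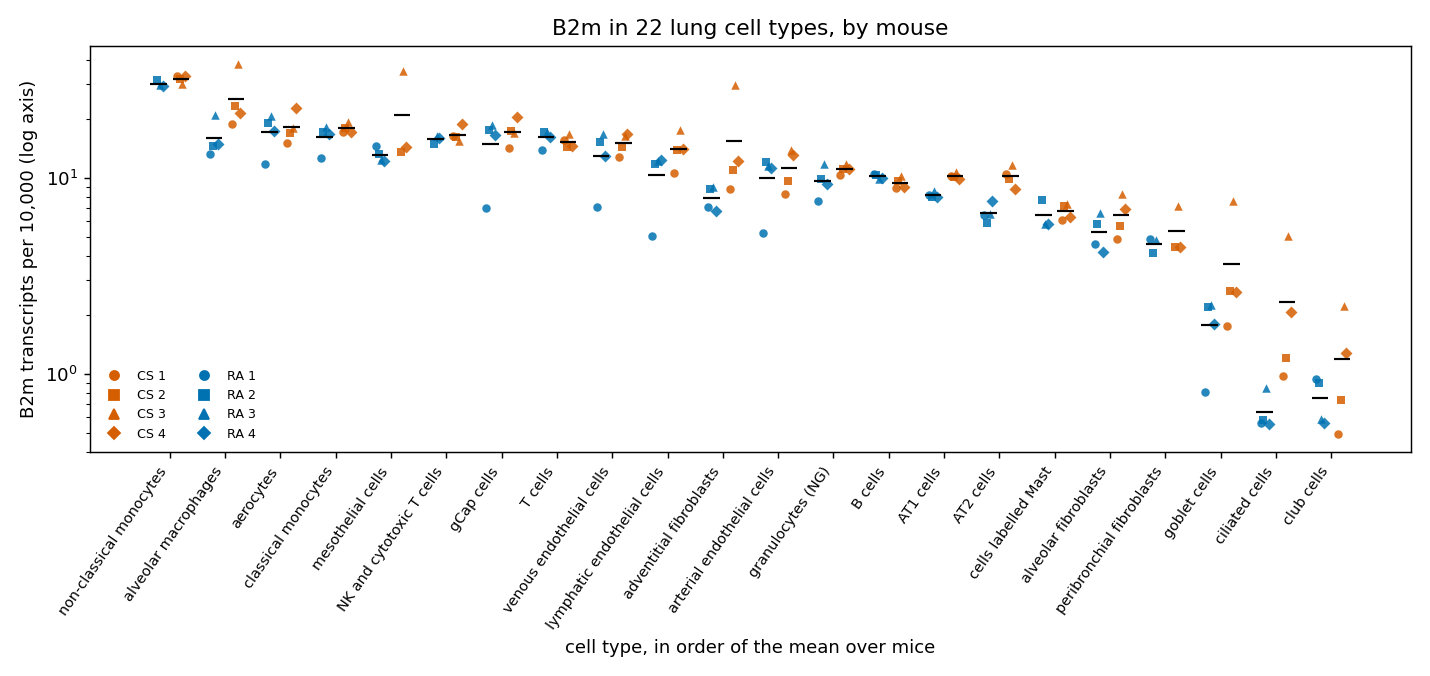
Mean B2m transcripts per 10,000 (y axis, log scale) in 22 cell types (x axis, ordered by the mean over mice), with 1 point per mouse, RA in blue, CS in orange, a symbol for each mouse number and black lines for group means. Levels run from about 31.1 in non-classical monocytes to 0.964 in club cells, the CS 3 triangle tops many types, and the RA 1 circle lies low in several endothelial types.

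Outside AT2 cells few member and type pairs passed. Of 201 pairs of a member and a cell type, 2 passed limma's test at an adjusted p under 0.05 (adjusted over all genes tested in a type), both of them Tapbp and both higher in CS, against 1.3% of all 163230 gene and type pairs, so the members' count is no higher than the background. At an unadjusted p under 0.05 there were 43 (29 higher and 14 lower in CS), against 15.7% of all pairs. All 10 members had a higher mean in CS in goblet cells, adventitial fibroblasts and mesothelial cells, where 70.2%, 52.2% and 50.2% of all genes did. Without CS 3 these counts were 9, 7 and 5 of 10, and the members' median log2 difference went from 0.34 to 0.05 in adventitial fibroblasts and from 0.26 to -0.01 in mesothelial cells. Mesothelial cells had only 3 CS mice with enough cells, CS 3 among them. In mesothelial cells all 8 leukocyte markers had a higher mean in CS (summed 0.418 to 0.623 in CS and 0.110 to 0.428 in RA mice, none at 0), and their part in the result was not tested. In B cells 2 of 10 had a higher mean (median -0.16) and in T cells 3 of 10 (median -0.10), while the median over all genes was 0.01 in B cells and 0.00 in T cells and adventitial fibroblasts.

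**Figure D3:**
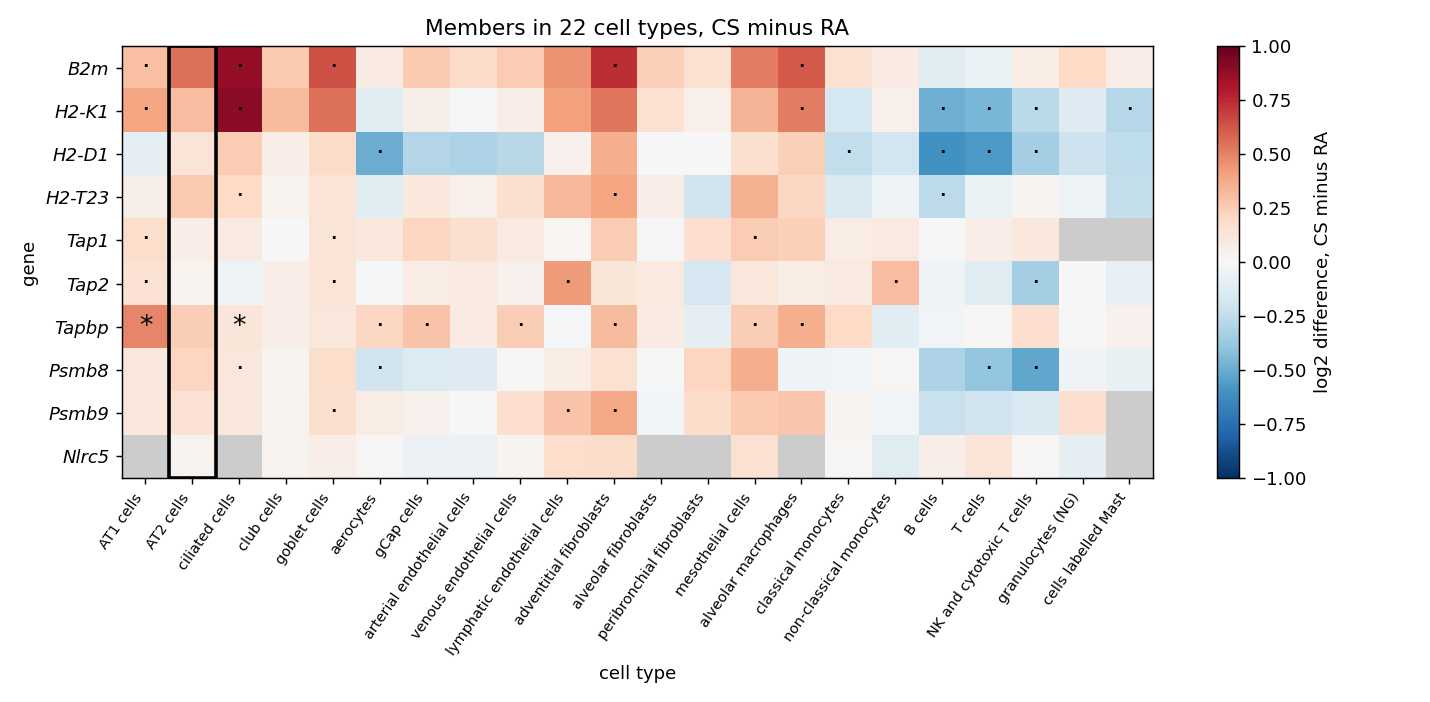
Log2 difference between CS and RA mice (colour, red for higher in CS) for the 10 members (rows) in 22 cell types (columns). Stars mark limma adjusted p under 0.05, dots unadjusted p under 0.05, grey cells were not tested, and the black frame marks AT2 cells, which carry no test. Only Tapbp in AT1 and in ciliated cells has a star, B2m is red in most types, and H2-K1 and H2-D1 are blue in B and T cells.

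B2m itself had a higher mean in CS in 19 of the 21 types outside AT2, against 54.3% of all gene and type pairs, and passed in none (16 without RA 1, 18 without CS 3 and 14 without both). Its median log2 difference was 0.24 with all mice and 0.07 without those 2. In AT1 cells, the flat cells of gas exchange, B2m stood at 10.2, 10.1, 10.7 and 9.82 in CS mice and 8.12, 7.92, 8.50 and 7.94 in RA mice. The groups did not overlap, as for 5.77% of genes in that direction in AT1 cells, and the log2 difference of 0.30 missed the threshold (limma adjusted p = 0.136), though not in a fit without a mean-variance trend (adjusted p = 0.0098). That fit was the only 1 of 19 alternative settings in which B2m in AT1 cells passed.

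In ciliated cells B2m stood at 0.973, 1.2, 5.05 and 2.06 in CS mice and at 0.557, 0.580, 0.841 and 0.555 in RA mice. All 4 CS mice lay above the 4 RA mice, as for 9.28% of genes in ciliated cells, CS 3 most of all, and the log2 difference was 0.88 (limma adjusted p = 0.0950), or 0.54 without CS 3. Over the alternative settings the difference ran from 0.52 to 1.45. Adventitial fibroblasts, the cells of the cuffs around vessels and airways, held 8.73, 11, 29.6 and 12.2 in CS mice and 7.06, 8.80, 9.00 and 6.76 in RA mice, a log2 difference of 0.73 (limma adjusted p = 0.153), or 0.38 without CS 3. CS 3 lay far above the other CS mice, which overlapped the RA mice.

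Alveolar macrophages held B2m at 18.8, 23.3, 37.8 and 21.3 in CS mice and at 13.2, 14.4, 21 and 14.8 in RA mice, again with CS 3 highest (log2 difference 0.61, limma adjusted p = 0.240, 0.41 without CS 3 and 0.33 without CS 3 and RA 1). Summed endothelial markers in the same macrophages were 4.58 to 7.68 in CS and 1.17 to 4.05 in RA mice, 6 of the 7 genes were higher on average in CS and 1 was at 0 in all mice, and their part in the result was not tested. The gCap cells held 14.1, 17.3, 16.9 and 20.3 in CS mice and 6.98, 17.5, 18.7 and 16.5 in RA mice, where RA 1 alone was low. B2m had a lower mean in CS in B cells (log2 difference -0.10) and T cells (-0.07). Differences of the B2m effect between epithelial, endothelial, mesenchymal and immune classes did not pass an exact permutation test over 6 pairs (smallest p = 0.0286, adjusted p = 0.171, the smallest p that 4 against 4 mice allow being 0.0286).

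Neither classical heavy chain passed in any type with all mice in the fit with a mean-variance trend, and the difference between their effects was not tested. H2-K1 had a higher mean in CS in 13 of 21 types and a lower mean in 8 (higher in 11 without CS 3 and in 9 without CS 3 and RA 1). In ciliated cells it stood at 4.26, 4.63, 19.5 and 6.69 in CS mice and at 3.40, 2.93, 3.80 and 3.60 in RA mice (log2 difference 0.90, limma adjusted p = 0.151), with no overlap and CS 3 far above the rest. Without CS 3 the difference was 0.47. In T cells the order was turned: 19.5, 19.3, 22.7 and 17.6 in CS mice against 29.8, 29.0, 24.7 and 26.3 in RA mice, with all CS mice below all RA mice (log2 difference -0.45, limma adjusted p = 0.141), as for 7.18% of genes tested in T cells. Summed leukocyte markers in T cells were 39.2 to 43.5 in CS and 41.1 to 49.8 in RA mice, with 7 of the 8 genes lower on average in CS, and their part in the results for T cells was not tested.

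H2-D1 had a lower mean in CS in 13 of 21 types, in 20 without CS 3, and in 20 without both CS 3 and RA 1 (median log2 difference -0.19 with all mice and -0.30 without both). All CS mice lay below all RA mice in 5 types, namely aerocytes, classical monocytes, B cells, T cells, and NK and cytotoxic T cells, against 4.81% of all gene and type pairs (7.1% of genes in aerocytes, 3.62% in B cells and 5.43% in NK and cytotoxic T cells). NK and cytotoxic T cells had only 3 RA mice with enough cells. T cells held 15, 11.9, 17.2 and 12.6 in CS mice and 23.2, 20.9, 19.9 and 21.8 in RA mice, a log2 difference of -0.58 ± 0.12 (SE, limma adjusted p = 0.141).

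B cells held H2-D1 at 10.2, 10.2, 12.2 and 9.05 in CS mice and at 20.5, 15.6, 13.5 and 16.2 in RA mice (log2 difference -0.60, limma adjusted p = 0.264). Summed leukocyte markers in B cells were 30.8 to 39.2 in CS and 34.5 to 43.2 in RA mice, with 6 of the 8 genes lower on average in CS, and their part was not tested. Aerocytes, the capillary cells specialised for gas exchange, held 15.6, 15.1, 20.2 and 20.4 against 23.6, 26.3, 25.2 and 26.4 (log2 difference -0.50, limma adjusted p = 0.0649). Aerocytes passed without RA 1 (limma adjusted p = 0.0282), without CS 3 and RA 1 (0.0352) and in a fit without a trend (0.0455). These were the only 3 of 19 alternative settings in which they passed, and limma adjusted p reached 0.231 in the others. In gCap cells H2-D1 stood at 17.9, 19.2, 21.3 and 21.3 in CS mice and 16.5, 26.3, 28.0 and 29.8 in RA mice (log2 difference -0.29, limma adjusted p = 0.247). RA 1 was the only RA mouse in the range of the CS mice or under it. Without it the difference was -0.47 (limma adjusted p = 0.0231), and without CS 3 and RA 1 it was -0.51 (0.0457). H2-D1 in gCap cells passed in no other setting.

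Within mice, the ratio of H2-D1 to B2m was lower in CS in 21 of 21 types outside AT2, with a median log2 difference of -0.40 (range -0.62 to -0.15, and median -0.41 over 21 of 21 types without CS 3 and RA 1). This ratio was chosen after the values were seen, and 86.5% of all gene and type pairs were also lower relative to B2m, so the direction is that of most genes. All CS mice lay below all RA mice in 11 of the 21 types, against 15.1% of all pairs. The ratio of H2-K1 to B2m was lower in CS in 18 of 21 types (median -0.19), in 7 of them without overlap. That of H2-D1 to H2-K1 was lower in 20 of 21 (median -0.25), in 6 without overlap. Both were also chosen after the values were seen, and no share over all genes was taken for ratios to H2-K1. H2-T23 had a higher mean in CS in 13 of 21 types, in 9 without CS 3 and in 5 without CS 3 and RA 1, and passed in none.

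**Figure D4:**
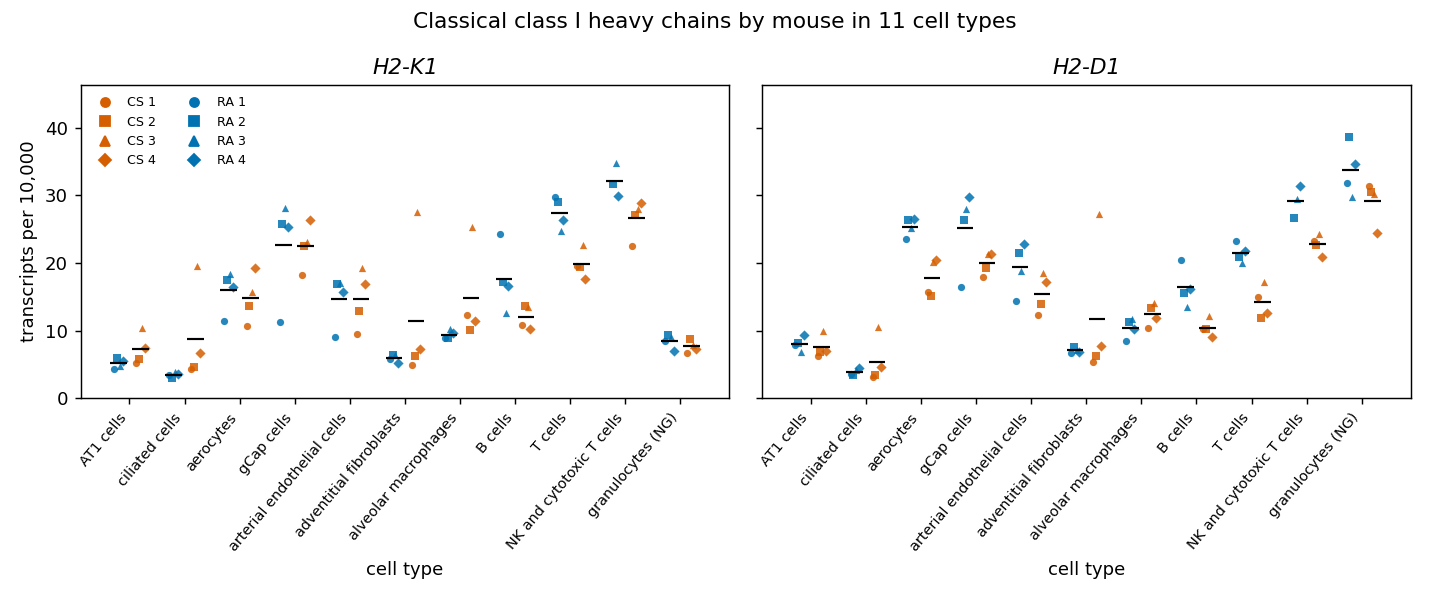
Mean transcripts per 10,000 (y axis) of H2-K1 (left) and H2-D1 (right) in 11 cell types (x axis), with 1 point per mouse, RA in blue, CS in orange, a symbol for each mouse number and black lines for group means. H2-D1 in aerocytes, B cells, T cells and NK and cytotoxic T cells (3 RA mice) has all CS points below all RA points, and CS 3 lies far above the other CS mice for both genes in ciliated cells and adventitial fibroblasts.

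Tapbp rose in AT1 cells, from 1.36, 1.59, 1.64 and 2.0 transcripts per 10,000 in RA mice to 2.75, 2.7, 2.44 and 2.93 in CS mice. The groups did not overlap, the means were 1.65 ± 0.268 and 2.71 ± 0.204 (SD, n = 4 each), and the log2 difference was 0.49 ± 0.088 (SE, limma adjusted p = 0.0078), in a type where 2.38% of 8873 genes passed. It was higher in 4 of 4 lanes, by 0.39 to 0.67, a direction that the lack of overlap already fixed. Summed endothelial markers in AT1 cells were 1.23 to 2.74 in CS and 0.379 to 3.27 in RA mice, and summed leukocyte markers 0.0800 to 0.650 and 0.195 to 0.746. The mean mitochondrial share of transcripts in AT1 cells was 2.83%, 3.16%, 2.39% and 2.13% in CS mice and 1.87%, 1.92%, 1.68% and 1.58% in RA mice. It was higher in all CS mice than in all RA mice, and its part in the AT1 results was not tested.

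Tapbp also passed in ciliated cells, where the log2 difference was small with a pseudocount of 1. CS mice stood at 0.750, 0.655, 0.727 and 0.729 and RA mice at 0.552, 0.558, 0.595 and 0.598, with no overlap (log2 difference 0.12 ± 0.030, SE, limma adjusted p = 0.0467), in a type where 4.63% of 11077 genes passed. With a pseudocount of 0.1 the log2 difference was 0.27 (limma adjusted p = 0.0490). With the lane as a block the ciliated call was lost (limma adjusted p = 0.115), while that in AT1 cells stayed (0.0132). Leaving out any mouse but CS 2 also lost it (0.0637 to 0.130). All CS mice lay above all RA mice for Tapbp in 7 of 21 types, against 6.2% of all pairs: AT1, ciliated, gCap, venous endothelial and mesothelial cells, aerocytes and alveolar macrophages. Mesothelial cells had only 3 CS mice with enough cells. In gCap cells it stood at 3.08, 2.96, 3.12 and 3.45 in CS and 1.70, 2.82, 2.72 and 2.47 in RA mice, where 13.6% of genes had no overlap in that direction.

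The transporter genes passed in no type. Tap1 had a higher mean in CS in 17 of 19 types (median log2 difference 0.10), against 15 of 21 without CS 3 and RA 1, and Tap2 in 13 of 21 (0.07), against 11 of 21. In AT1 cells Tap2 stood at 0.552, 0.582, 0.494 and 0.608 in CS mice and 0.410, 0.432, 0.407 and 0.405 in RA mice. These did not overlap, as for 5.77% of genes in that direction in AT1 cells. Over the 21 types, all CS mice lay above all RA mice for Tap2 in 2 and below them in 2.

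Calr and Pdia3, chaperones that work beside tapasin, fell in several types. In a list of 30 further class I genes, of which 29 were in the matrix, 12 of 471 pairs with a cell type outside AT2 passed, 1 higher and 11 lower in CS, against 0.751% of all pairs higher and 0.546% lower. Of the 11 lower pairs, Calr gave 7 and Pdia3 gave 3, in types from the same 8 mice. The list was chosen with earlier results of these data known, so its count is only a description. Calr, the lectin chaperone calreticulin, fell in 7 types and had a lower mean in 21 of 21. In alveolar fibroblasts it stood at 2.49, 2.36, 2.60 and 2.40 in CS mice and 6.96, 4.66, 4.48 and 4.64 in RA mice, with no overlap (log2 difference -0.82, limma adjusted p = 0.0087, where 1.37% of genes passed). All 8 leukocyte markers had a higher mean in CS in alveolar fibroblasts (sums 0.0917 to 2.26 in CS and 0.236 to 0.836 in RA mice, CS 3 highest), and their part in the results for these cells was not tested. In gCap cells Calr stood at 2.61, 2.98, 2.52 and 2.43 against 4.16, 4.70, 4.58 and 5.31, again with no overlap (-0.64, limma adjusted p = 0.0115, where 10.3% passed).

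The other types in which Calr fell were aerocytes (log2 difference -0.59), ciliated cells (-0.38), arterial (-0.74) and venous (-0.77) endothelial cells and adventitial fibroblasts (-0.72), with limma adjusted p from 0.0083 to 0.0432. Summed endothelial markers in arterial endothelial cells were 73.7 to 87.4 in CS and 91.7 to 96.9 in RA mice, without overlap, with 5 of the 7 genes lower on average in CS. All 8 leukocyte markers had a higher mean in CS in venous endothelial cells (sums 0.191 to 0.401 and 0.109 to 0.329), and the part of either list in the Calr values was not tested. The share of all genes that passed was 1.96% in aerocytes, 0.669% in arterial and 0.13% in venous endothelial cells and 3.1% in adventitial fibroblasts. With the lane as a block, Calr passed in alveolar fibroblasts, aerocytes and ciliated cells but not in gCap cells (limma adjusted p = 0.0646), arterial (0.0635) and venous (0.0832) endothelial cells and adventitial fibroblasts (0.0995). Over the alternative settings Calr passed in 19 of 19 for ciliated cells and 18 of 19 for alveolar fibroblasts. It passed in 17 of 19 for aerocytes and 16 of 19 for gCap cells. For adventitial fibroblasts it passed in 11 of 19, for arterial endothelial cells in 11 of 18 and for venous in 8 of 19. Without the low-value filter only the ciliated Calr call held. Pdia3, the disulfide isomerase that is bound to tapasin, fell in alveolar fibroblasts (-0.61, limma adjusted p = 0.0167), gCap cells (-0.38, 0.0457) and ciliated cells (-0.30, 0.0267), and had a lower mean in 18 of 21 types, though no Pdia3 call held with the lane as a block (limma adjusted p = 0.0860 to 0.0958). In alveolar fibroblasts it stood at 2.33, 2.78, 2.95 and 2.31 in CS mice and 4.96, 3.72, 4.56 and 4.73 in RA mice. Pdia3 passed in 13 of 19 alternative settings for alveolar fibroblasts, 11 of 19 for ciliated cells and 10 of 19 for gCap cells. Canx, the membrane-bound relative of calreticulin, passed in no type and had a lower mean in 17 of 21. In ciliated cells Tapbp, Calr and Pdia3 all passed, Tapbp higher and the other two lower in CS. These chaperones serve the folding of many glycoproteins besides class I.

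**Figure D5:**
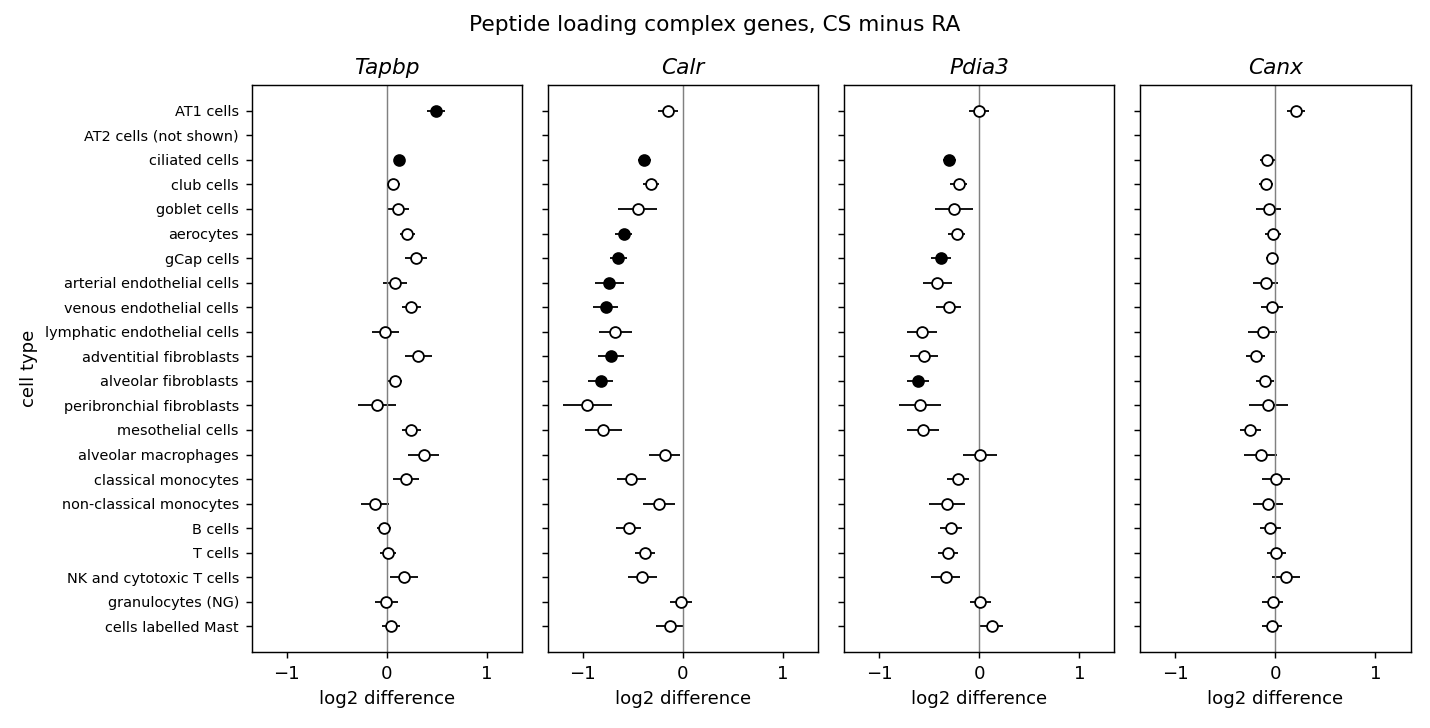
Log2 difference between CS and RA mice (x axis, bars are standard errors) of Tapbp, Calr, Pdia3 and Canx in 21 cell types (y axis, AT2 cells not shown). Filled points passed limma's adjusted threshold: Tapbp lies right of zero in AT1 and ciliated cells, Calr left of zero in 7 types and Pdia3 in 3, while no Canx point is filled.

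The immunoproteasome subunits passed in no type. Psmb8 had a higher mean in CS in 10 of 21 types (6 without CS 3) and Psmb9 in 14 of 20 (13 without CS 3 and 11 without CS 3 and RA 1). NK and cytotoxic T cells held Psmb8 at 2.04, 1.82, 2.32 and 1.62 in CS mice and at 3.31, 2.86 and 3.45 in the 3 RA mice with enough cells, with no overlap (log2 difference -0.52, limma adjusted p = 0.294). Summed leukocyte markers in these cells also did not overlap (95.0 to 110 in CS and 111 to 120 in RA mice, 6 of the 8 genes lower on average in CS), all 7 endothelial markers had a higher mean in CS (sums 2.09 to 5.62 and 1.36 to 6.45), and the part of either in the Psmb8 and H2-D1 values was not tested. T cells had a Psmb8 log2 difference of -0.39 (limma adjusted p = 0.153).

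Each inducible subunit replaces a constitutive partner in the proteasome core, so their ratio was also compared. Psmb9 relative to Psmb6 was higher in CS in 19 of 21 types (median log2 difference 0.35), Psmb8 relative to Psmb5 in 13 of 21 (0.14) and Psmb10 relative to Psmb7 in 11 of 21 (0.02). None of 63 ratios passed an exact two-sided permutation test after adjustment (4 at p = 0.0286, the smallest possible, adjusted p = 0.45). The constitutive partners had lower means in CS in 17 of 20 types for Psmb5 and 16 of 20 for Psmb6.

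Nlrc5, which switches on the class I promoters, was measurable in 15 types outside AT2, had a higher mean in CS in 11 (8 without CS 3) and passed in none. Irf1, an interferon-induced regulator of the pathway, had a higher mean in 11 of 21 types and passed in none. The interferon gamma receptor chain Ifngr1 fell in alveolar fibroblasts (log2 difference -0.62, limma adjusted p = 0.0192), from 6.60, 4.92, 5.74 and 5.03 in RA mice to 3.42, 2.86, 3.29 and 3.53 in CS mice. Mr1, a class I-like molecule that presents vitamin B metabolites, rose in ciliated cells (0.17, limma adjusted p = 0.0465), from 0.777, 0.897, 0.962 and 1.0 in RA mice to 1.14, 1.11, 1.19 and 1.18 in CS mice. Neither gene had overlapping groups in that type, and neither passed with the lane as a block (limma adjusted p = 0.0913 and 0.0958). Ifngr1 in alveolar fibroblasts passed in 14 of 19 alternative settings and Mr1 in ciliated cells in 6 of 19.

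Interferon-induced genes were set beside the members, since CS 3 stood apart for them. In adventitial fibroblasts the summed level of 10 such genes was 4.49, 5.21, 18.4 and 8.24 in CS mice and 5.21, 5.35, 6.18 and 4.24 in RA mice, and CS 3 was highest there as for B2m, H2-K1 and H2-D1. In ciliated cells, where CS 3 was also highest for those 3 genes, the sum was 2.91, 2.47, 3.06 and 3.05 in CS mice, so CS 3 was the highest of these by little, within the 2.23 to 3.86 of the RA mice. Outside AT2 cells CS 3 was the highest CS mouse for the sum in 14 of 21 types and the lowest in 3, namely alveolar and peribronchial fibroblasts and the cells labelled Mast. CS 3 was above all RA mice in adventitial fibroblasts, arterial and lymphatic endothelial cells, aerocytes, and NK and cytotoxic T cells. The same held in mesothelial cells (15.8, with RA mice at 7.17 to 9.04) and by little in alveolar macrophages (5.29, with RA mice at 2.26 to 5.21). In the other types outside AT2 cells its sum lay within or below the RA range. In gCap cells the sum was lowest in RA 1 (4.77, with the other RA mice at 7.20 to 9.20), the mouse with the lowest B2m. The part of the interferon-induced genes in the members' values was not tested.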

How the data were processed

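The authors trimmed reads with cutadapt 2.9, aligned them to GRCm38.p6 with GENCODE M22 and the reporter sequences by STAR 2.7.3a (STARsolo), counted spliced and unspliced transcripts, and corrected them for free RNA with SoupX 1.2.2. The deposited matrix holds these estimated counts, which are not whole (1.28% within 1e-06 of a whole number) and unscaled, so no count model was fitted. Cell types and multiplet calls (1025 cells, left out with 7 cycling cells) are the authors'.

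Each cell was scaled to 10000 transcripts and averaged per mouse and type. Types with at least 3 mice a group of at least 20 cells were compared with limma 3.58.1 (R 4.3.3) on log2(mean + 1), with a mean-variance trend, over genes seen in at least 10% of the CS or the RA cells, and p-values were adjusted by Benjamini-Hochberg (threshold 0.05). The pseudocount understates changes of low genes. Ratios used a pseudocount of 0.1. All 10 members and the further class I genes that passed are named, and 1 gene of that list and 1 of the motifs are not reported here. The members and lists were chosen with earlier results of these data known. The fit was tested on simulated data. Lanes pair the mice by label, and deviations of same-lane mice correlated at -0.04, 0.00, -0.05 and 0.09 over genes and types. Positions are from the GRCm38 annotation of an earlier GENCODE release, and alternatives are given in the closing section.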

Additional observations from a re-analysis of the deposited data

Results flagged for a closer look

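In groups of 4 mice, a mouse was picked out where its gap to the nearest other took more of the group's range than Dixon's 95% critical value allows. Of 380 groups of a member, type and exposure over the 10 members, 36 had such a mouse, and chance picks out about 1 in 20. CS 3 gave 18 of the 36 and RA 1 gave 11.

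CS 3 lay above the other CS mice for B2m in goblet cells (7.57 transcripts per 10,000, the others 1.74 to 2.64) and adventitial fibroblasts (29.6, the others 8.73 to 12.2). For H2-K1 it did so in ciliated cells (19.5, the others 4.26 to 6.69), club cells (6.47, 1.74 to 2.49), goblet cells (13.5, 4.68 to 5.91), adventitial fibroblasts (27.5, 4.97 to 7.21) and alveolar macrophages (25.3, 10.1 to 12.3). It did so too for H2-D1 in adventitial fibroblasts (27.3, 5.38 to 7.74) and for Tapbp in adventitial fibroblasts (3.52, 1.86 to 2.01) and alveolar macrophages (4.05, 2.22 to 2.38).

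In adventitial fibroblasts CS 3 was also above the other CS mice for H2-T23 (4.31, 1.89 to 2.05), Tap1 (0.957, 0.104 to 0.245), Psmb9 (1.62, 0.263 to 0.369) and Nlrc5 (0.884, 0.103 to 0.154). The same held for Psmb9 in goblet cells (0.385, 0.181 to 0.2), venous endothelial cells (1.39, 1.18 to 1.22) and B cells (1.36, 0.645 to 0.743), and for Nlrc5 in ciliated cells (0.110, 0.0299 to 0.0375).

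RA 1 lay below the other RA mice for B2m in arterial (5.21, the others 11.2 to 12.1) and lymphatic (5.04, 11.8 to 12.3) endothelial cells, and for H2-K1 in gCap cells (11.3, 25.3 to 28.1) and arterial endothelial cells (9.06, 15.8 to 17.0). In gCap cells it was low for H2-T23 (1.86, 3.73 to 3.99), Tap2 (1.07, 1.46 to 1.51) and Psmb8 (1.40, 2.32 to 2.47), and in AT2 cells for H2-T23 (0.504, 0.701 to 0.740). RA 1 lay above the other RA mice for Tap1 in mesothelial cells (0.305, 0.163 to 0.186) and, in B cells, for Tap2 (1.2, 0.670 to 0.703) and Nlrc5 (0.992, 0.333 to 0.417). RA 3 was above the other RA mice for B2m in ciliated cells (0.841, 0.555 to 0.580), and RA 4 below them for H2-K1 in alveolar fibroblasts (2.52, 4.17 to 4.19). RA 2 was above the other RA mice for Psmb8 in lymphatic endothelial cells (1.23, 0.849 to 0.853). In non-classical monocytes CS 1 was above the other CS mice for H2-T23 (2.01, 1.39 to 1.48) and CS 2 below them for Tap1 (0.528, 0.885 to 0.940). CS 4 was above them for Tap2 in aerocytes (1.49, 1.25 to 1.29) and for Nlrc5 in NK and cytotoxic T cells (1.75, 1.16 to 1.21).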

How the results depend on the processing

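Of the 201 member and type pairs outside AT2 cells, 2 passed, against 0 without the low-value filter, 1 with the lane as a replicate block, 1 with summed transcripts, 1 without the 20 top genes in the total, 1 with median scaling and 4 without the trend (B2m and Tapbp in AT1, Tapbp in ciliated cells, H2-D1 in aerocytes). Leaving out 1 mouse gave 1 to 3 (1 without CS 1, CS 3, CS 4, RA 2, RA 3 or RA 4, and 3 without RA 1), and leaving out CS 3 and RA 1, chosen after seeing the data, gave 3. The cause was not tested. Tapbp in AT1 cells had adjusted p of 0.00497 to 0.0674 over the planned settings and missed the threshold only without the filter. Tapbp in ciliated cells had 0.0312 to 0.130. B2m in AT2 cells, the value that chose the genes, had a log2 difference of 0.48 to 0.61. Leaving out a mouse could not turn its direction, since the groups did not overlap, so nothing is read from that. With at least 50 cells a mouse, B2m had a higher mean in 12 of 14 types. The difference of B2m between endothelial and epithelial types (1.78 with AT2 cells) was 1.72 to 1.86 with 1 mouse left out, 2.21 with a pseudocount of 0.1, and 2.06 without AT2 cells, an alternative added after seeing the data. Among member and type pairs with an unadjusted p under 0.05 and the further genes that passed, no log2 difference changed sign under any setting. These pairs were picked for small p-values in the main fit, so a kept sign carries little weight. Of the calls among them, 13 were lost without the low-value filter, 10 with the lane as a block and 9 without CS 4. With genes seen in at least 25% of cells 0 were lost. Without CS 3 and RA 1, H2-K1 went from 13 to 9 types with a higher mean (median 0.06 to -0.14) and H2-T23 from 13 to 5 (0.05 to -0.06).

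With 4 mice a group, differences near the spread between mice could not be told from none, and low members such as Tap1 and Nlrc5 were tested in fewer types. Types of few cells rest on fewer transcripts.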
